A study of Danio rerio with 24 samples.

Results

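Whole zebrafish embryos raised in cannabidiol (CBD) were compared with embryos raised in the solvent dimethyl sulfoxide (DMSO), both sampled at 10 hours post-fertilization (hpf), by RNA sequencing. The comparison took every CBD library of that age, 4 in number, and the 3 DMSO libraries with at least 1000000 counts, together 7 of the 24 libraries of the series. The 15307666 counts of CBD library 3 were the fewest inside that limit, and DMSO library 4, with 125926 counts, was left out. All embryos carried the Tg(fli1:egfp) transgene, in which the promoter of the vascular gene fli1 drives green fluorescent protein, and all were kept in their solution from the start of development, so the DMSO embryos differed from untreated ones too. The series also holds embryos raised in tetrahydrocannabinol (THC) and larvae of 96 hpf from each treatment, with 4 libraries per group. Concentrations, embryos per library and clutches are not stated in the labels, and p-values therefore cover the spread between these libraries, which may be technical.

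CBD is a plant cannabinoid that binds weakly to the main site of the cannabinoid receptors and acts on several other receptors and channels. An embryo of this age is closing gastrulation: the germ layers have formed, maternally supplied factors such as Nanog and Pou5f3 are being cleared, and the first somites and neural plate genes are about to follow. Because transcript levels change fast at this time, embryos that differ slightly in developmental position differ in many genes whatever they were treated with.

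The 7 libraries held 15307666 to 20872591 counts. CBD library 3 stood apart from the rest: 20212 genes had a count there, against 23229 to 24432 in the other CBD libraries and 23448 to 24707 in the DMSO libraries. Its 50 highest genes took 24.4% of its counts, against 16.7% to 19.8% in the other CBD libraries and 16.9% to 18.4% in the DMSO libraries. On the first principal component of the 5000 most variable genes over the 11 deep libraries of 10 hpf, which held 54.4% of the variance, it lay at 151.5, and every other library lay between -94.9 and 29.4. Its TMM scaling factor was 0.607, against values above 1 in the other deep libraries. The difference of CBD minus DMSO in genes detected, -1071 genes, had a two-sided exact permutation p of 0.343 (adjusted over 4 library measures, 0.457). The smallest p that this exact permutation test can give with 4 libraries against 3 is 0.0571.

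Markers of developmental position varied more within each group than between CBD and DMSO. nanog, which encodes a maternal factor that activates the zygotic genome, was at 10.2, 10.8, 123.9 and 69.5 counts per 1000000 after TMM scaling (CPM) in CBD libraries 1 to 4, at 68.7, 116.3, 199.0 and 10.1 CPM in THC libraries 1 to 4, and at 9.52, 120.6 and 90.4 CPM in DMSO libraries 1 to 3. Each treatment therefore held at least 1 library near 10 CPM and others several-fold higher, and the CBD and DMSO ranges overlapped almost fully. The log2 fold change of CBD over DMSO was -0.46 ± 1.07 (SE), with an unadjusted p of 0.676 in edgeR's quasi-likelihood test. pou5f3, the maternal partner of nanog, was at 138, 214, 454 and 526 CPM in the CBD libraries and at 238, 464 and 471 CPM in the DMSO libraries.

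Genes of the somite stage were highest in library 1 on each side. MYOD1, the muscle determination factor, was at 30.4, 6.39, 0.97 and 1.72 CPM in the CBD libraries and at 16.8, 1.11 and 1.41 CPM in the DMSO libraries. smyhc1, a slow muscle myosin, was at 151.7, 0.21, 0.32 and 0.91 CPM in the CBD libraries and at 67.4, 0.26 and 0.43 CPM in the DMSO libraries. he1.1, a hatching enzyme, was at 154.4, 10.4, 3.34 and 1.63 CPM in the CBD libraries and at 61.3, 0.63 and 1.41 CPM in the DMSO libraries. CBD library 1 and DMSO library 1 thus held muscle and hatching gland transcripts that the other libraries labelled 10 hpf held less of. CBD library 1 was the higher of the pair for all 3 genes. Whether these libraries were older than their label or mixed in age was not tested. CBD library 2 lay above CBD libraries 3 and 4 for MYOD1 and he1.1, at 6.39 and 10.4 CPM, but not for smyhc1, at 0.21 CPM. Its nanog level, 10.8 CPM, was also near that of CBD library 1, at 10.2 CPM, and DMSO library 1, at 9.52 CPM. THC library 4 was also above the other THC libraries for MYOD1 and he1.1, at 8.94 and 16.7 CPM. MYOG, the later muscle factor, had counts only in CBD library 1 and DMSO library 1 of the 7, at 7.56 and 3.33 CPM. FLI1, the zebrafish fli1a whose promoter the transgene carries, followed the same order, with 32.1, 0.69, 0.43 and 0.05 CPM in the CBD libraries and 12.6, 0.05 and 0 CPM in the DMSO libraries.

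**Figure D1:**
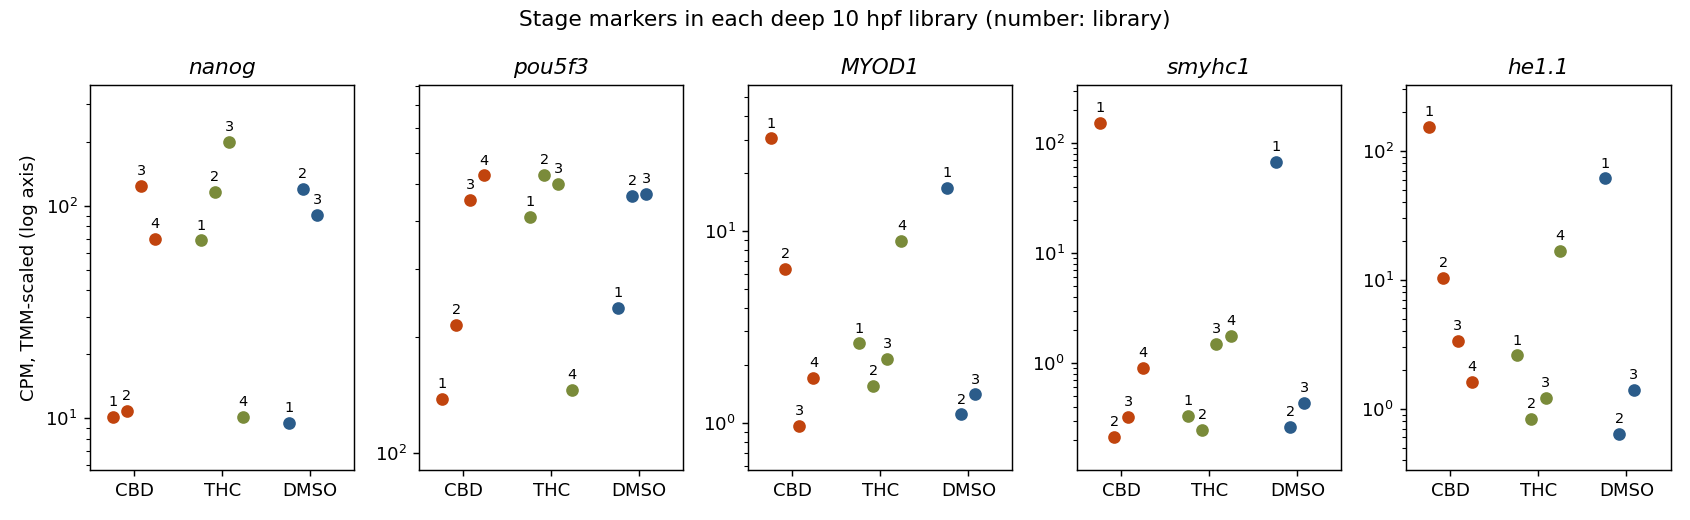
Level of 5 stage markers (CPM after TMM scaling, log axis) in each deep library of 10 hpf, with CBD, THC and DMSO side by side and the library number at each point. Within each treatment nanog runs from about 10 CPM to about 70 CPM or more, and smyhc1 and he1.1 are highest in CBD library 1 and DMSO library 1.

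Genes that the end of gastrulation should hold were present throughout. tbxta, the notochord and tail bud factor, was at 122, 171, 101 and 247 CPM in the CBD libraries and at 156, 201 and 227 CPM in the DMSO libraries. The neural plate factor SOX2 was at 95.7, 105, 43.1 and 91.1 CPM in the CBD libraries and at 94.9, 73.4 and 77.7 CPM in the DMSO libraries. CBD library 3 was the lowest for both, and the groups overlapped for both. Of 34 genes of larval organs, such as digestive enzymes and lens crystallins, 21 passed the low-count filter. The summed level of all 34 was 15.8 to 92.1 CPM in the CBD libraries and 15.5 to 73.4 CPM in the DMSO libraries. In whole embryos, fewer cells of a type and less RNA per cell cannot be told apart.

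Since stage markers varied so widely within groups, position was put into a second fit as the log2 level of nanog in each library. Over the 11 deep libraries of 10 hpf, 3765 of 18185 genes changed with the nanog level within treatments at an adjusted p under 0.05 (20.7%), 1589 rising (8.74%) and 2176 falling with it (12%). That count was 1022 with CBD and DMSO libraries alone, 213 with a block for replicate number, 1756 without DMSO library 1 and 6020 without CBD library 3. The biological coefficient of variation, the typical relative spread of a gene between libraries of a group, was 0.492 in the fit by treatment alone and 0.361 with the nanog term. The term adjusts for a level measured in the same libraries, not for an independent record of age.

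No gene passed the test between CBD and DMSO embryos in either fit. In edgeR's quasi-likelihood test 0 of 18186 genes (0%) had an adjusted p under 0.05, the smallest being 0.786, and 784 genes had an unadjusted p under 0.05 (4.31%), 347 higher (1.91%) and 437 lower (2.4%). With the nanog term 0 of 18185 genes passed, the smallest adjusted p was 0.551, and 1147 genes had an unadjusted p under 0.05 (6.31%). DESeq2 called 0 genes by treatment alone and 1 with the nanog term (0.0055%). limma voom, which gives each library a weight by how far it departs from its group, called 6 genes higher (0.033%) and 387 lower (2.13%), and its weights were 0.298, 2.15, 0.0846 and 0.864 for CBD libraries 1 to 4 and 0.434, 3.07 and 3.33 for DMSO libraries 1 to 3. Its calls thus rested mostly on CBD library 2 and DMSO libraries 2 and 3. With the nanog term it called 99 genes higher (0.544%) and 1452 lower (7.98%), with other weights: 0.237, 1.12, 0.0554 and 4.21 for CBD libraries 1 to 4 and 1.12, 2.65 and 1.6 for DMSO libraries 1 to 3.

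Some genes had every CBD library on one side of every DMSO library: 338 of 18186 lay higher in CBD (1.86%) and 798 lay lower (4.39%). The 7 libraries can be split into 4 and 3 in 35 ways, so some genes lie without overlap by order alone. How many do so under the other splits was not counted, and these shares are no measure of a CBD effect. By the median, CBD library 3 lay furthest from DMSO on both sides, and the other CBD libraries lay less far off. That all lay on the same side follows from how the genes were chosen and is no separate evidence. Over the 798 lower genes, the median log2 ratio to the DMSO mean was -0.32, -0.60, -1.49 and -0.48 in CBD libraries 1 to 4. Over the 338 higher genes it was 0.21, 0.32, 1.08 and 0.20, while over all genes it was 0.02, -0.03, -0.19 and -0.03. Since CBD and DMSO each held libraries of low and of high nanog, a gene that followed nanog could hardly be without overlap, and whether these genes follow developmental position in another way was not tested.

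None of the genes that lay below DMSO without overlap passed the test. The 10 with the smallest p among them had log2 fold changes of -1.98 to -0.85. Their unadjusted p-values in edgeR's quasi-likelihood test were 0.000912 to 0.00248, each with an adjusted p of 0.786. Without CBD library 3 their log2 fold changes were -1.84 to -0.82, and that library was the lowest CBD library in 5 of the 10. STK38 (ENSDARG00000019973; another identifier has the same symbol), a kinase related to the Hippo pathway kinases, was at 25.9, 20.9, 25.4 and 25.4 CPM in the CBD libraries, at 46.1, 53, 52 and 37.2 CPM in the THC libraries and at 34.2, 52.1 and 53.1 CPM in the DMSO libraries. The 4 CBD values lay close together and below all others, and the DMSO library of low nanog was the nearest to them. Its log2 fold change was -0.93 ± 0.21 (SE), and -0.84 ± 0.16 with the nanog term. STK38 was the 1 gene that DESeq2 called with that term, at an adjusted p of 0.00213.

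SNX13, a sorting nexin of endosomal traffic, was at 3.98, 3.51, 2.80 and 2.63 CPM in the CBD libraries and at 6.80, 10.8 and 10.8 CPM in the DMSO libraries. ACER3, an alkaline ceramidase that cleaves ceramide, was at 2.05, 1.01, 1.19 and 0.77 CPM in the CBD libraries and at 3.42, 3.44 and 4.77 CPM in the DMSO libraries. ASPA, the enzyme that cleaves N-acetylaspartate, was at 2.19, 1.01, 0.75 and 0.53 CPM in the CBD libraries and at 3.66, 5.08 and 4.77 CPM in the DMSO libraries. All 3 were low in abundance, and their CBD and DMSO libraries did not overlap. Their log2 fold changes were -1.55 ± 0.36, -1.62 ± 0.38 and -1.98 ± 0.49 (SE).

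Among regulators of RNA, PUM2, a repressor of translation that binds 3' untranslated regions, had the widest gap within the CBD group. It was at 40.7, 11.6, 11.4 and 12.7 CPM in the CBD libraries, at 70.7, 71.4, 70.5 and 36.8 CPM in the THC libraries and at 54.7, 63.0 and 72.8 CPM in the DMSO libraries. CBD library 1 lay about midway between the other CBD libraries and DMSO. nova1, a splicing regulator best known from neurons, was at 15.8, 12.2, 3.56 and 11.3 CPM in the CBD libraries and at 24.8, 40.0 and 38.8 CPM in the DMSO libraries. ZNF106, a zinc finger protein that binds RNA, was at 77.2, 50.7, 36.8 and 53.1 CPM in the CBD libraries and at 93.5, 116 and 124 CPM in the DMSO libraries. RPRD1A, which binds the tail of RNA polymerase II, was at 18.1, 14.0, 14.7 and 15.1 CPM in the CBD libraries and at 25.4, 26.2 and 31.9 CPM in the DMSO libraries. CBD library 1 was the nearest of the CBD libraries to DMSO in each of these.

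tead1a, a DNA-binding partner of the Hippo coactivators, was at 35.4, 21.4, 15.5 and 21.3 CPM in the CBD libraries and at 44.0, 48.4 and 57.5 CPM in the DMSO libraries. ppp2r2aa, a regulatory subunit of protein phosphatase PP2A, averaged 22.8 ± 8.74 CPM in CBD embryos (SD, n = 4) and 50.5 ± 5.12 CPM in DMSO embryos (SD, n = 3). FAM118B, which a previous account of these data named, was at 30.0, 20.3, 14.7 and 21.0 CPM in the CBD libraries and at 37.0, 40.9 and 43.2 CPM in the DMSO libraries, with a log2 fold change of -0.91 ± 0.25 (SE) and an unadjusted p of 0.00387. For these 3 genes too the groups did not overlap, and CBD library 3 was the lowest. In all 10 genes chosen by p, CBD library 1 was the CBD library nearest to DMSO, and in 8 of them every THC library lay above the highest CBD library. The 10 were chosen for low CBD values, so this order is no separate evidence, and its share over all genes was not counted. THC and CBD were set against the same DMSO libraries, and the log2 fold changes of THC over DMSO in the 10 genes ran from -0.33 to 0.18.

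**Figure D2:**
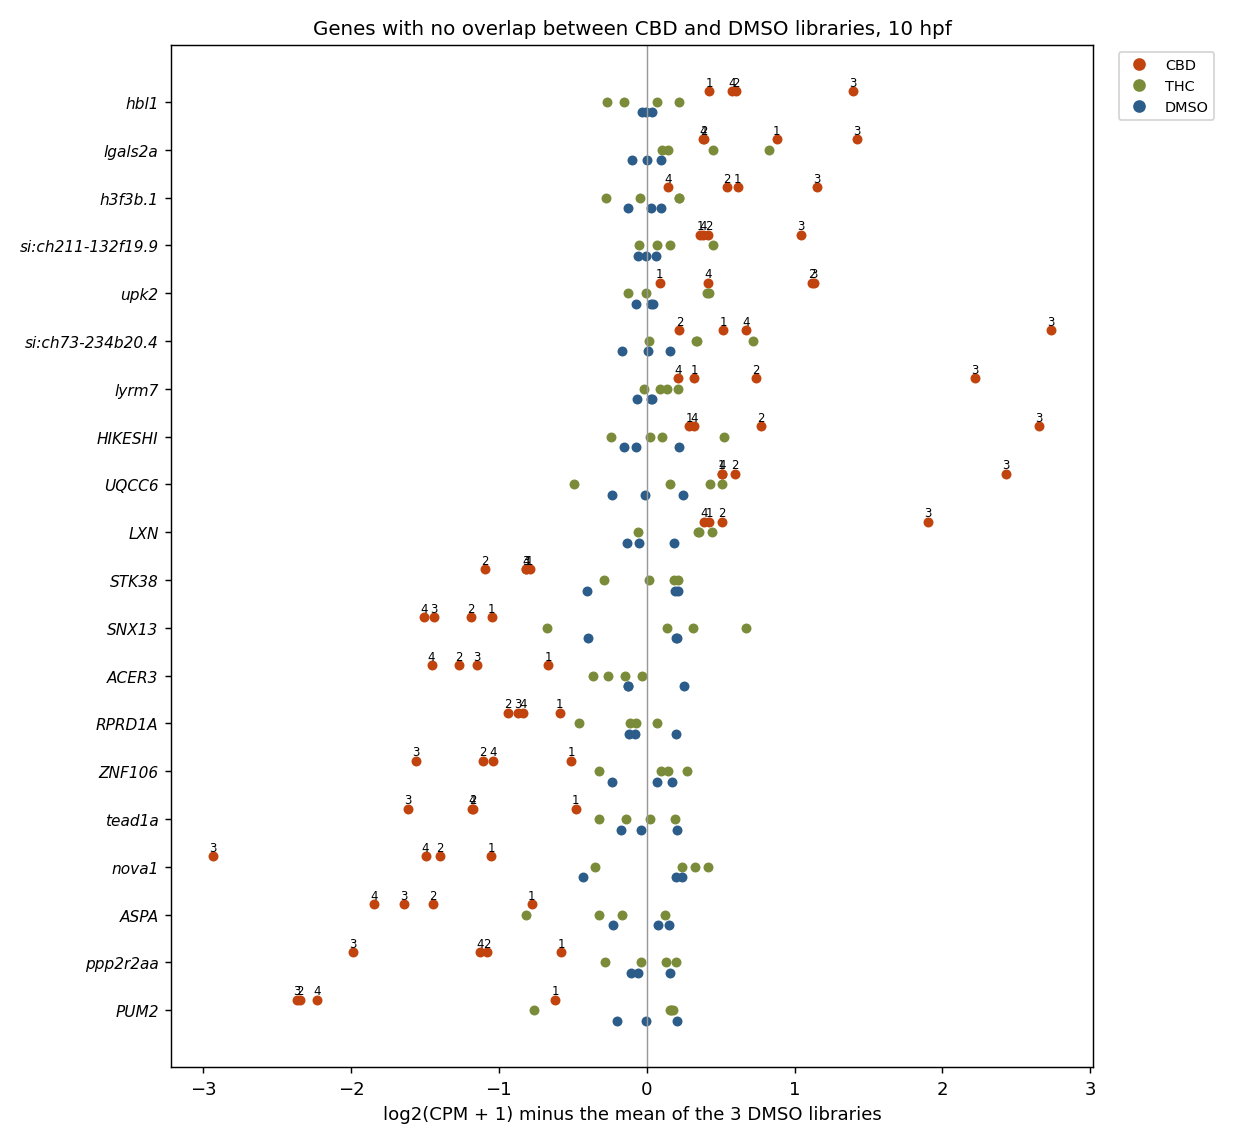
The 10 genes with the smallest p on each side among those without overlap: log2(CPM + 1) minus the mean of the 3 DMSO libraries, for each CBD, THC and DMSO library of 10 hpf, with the number of each CBD library. In the upper 10 rows CBD library 3 lies further right than the other CBD and DMSO libraries, and in the lower 10 rows CBD library 1 is the CBD library nearest to DMSO.

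The genes above DMSO without overlap did not pass the test either, and many were highest in CBD library 3. The 10 with the smallest p had log2 fold changes of 0.66 to 1.76. Their unadjusted p-values in edgeR's quasi-likelihood test were 0.0121 to 0.0267, with an adjusted p of 0.786 for each. CBD library 3 was the highest of the CBD and DMSO libraries in 10 of 10. These levels are after TMM scaling, and the factor of 0.607 raised all levels of that library. The order before scaling was not examined. Without that library their log2 fold changes were 0.46 to 1.49. HIKESHI, which carries the chaperone Hsp70 into the nucleus, was at 29.9, 42.2, 158 and 30.6 CPM in the CBD libraries and at 28.5, 21.8 and 23.1 CPM in the DMSO libraries. UQCC6 and lyrm7, both assembly factors of respiratory complex III, showed the same order. UQCC6 was at 4.2, 4.52, 18.8 and 4.21 CPM in the CBD libraries and at 2.63, 3.33 and 2.11 CPM in the DMSO libraries. lyrm7 was at 8.87, 12.2, 35.8 and 8.13 CPM in the CBD libraries and at 7.04, 7.08 and 6.56 CPM in the DMSO libraries. Leaving out CBD library 3 took the log2 fold changes to 0.49 for HIKESHI, 0.68 for UQCC6 and 0.50 for lyrm7, against 1.41, 1.54 and 1.23 with it.

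A lectin and a uroplakin gene kept a larger part of their log2 fold change without that library. hbl1, a collectin of the mannose-binding family, was at 1.49, 1.81, 3.88 and 1.77 CPM in the CBD libraries and at 0.84, 0.90 and 0.81 CPM in the DMSO libraries. Its log2 fold change was 1.37 ± 0.46 (SE), and 0.99 without CBD library 3. That of upk2, a uroplakin, was 1.74 ± 0.63 (SE) and 1.49 without it. h3f3b.1, a gene for the replacement histone H3.3, was the most abundant of these, at 124, 117, 180 and 89.0 CPM in the CBD libraries and at 86.2, 73.6 and 81.9 CPM in the DMSO libraries. CBD library 4 lay just above the highest DMSO library. lgals2a (a galectin), LXN (an inhibitor of carboxypeptidases) and the uncharacterised si:ch211-132f19.9 and si:ch73-234b20.4 completed the 10. Only in h3f3b.1 and HIKESHI were the levels above 10 CPM in every library.

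**Figure D3:**
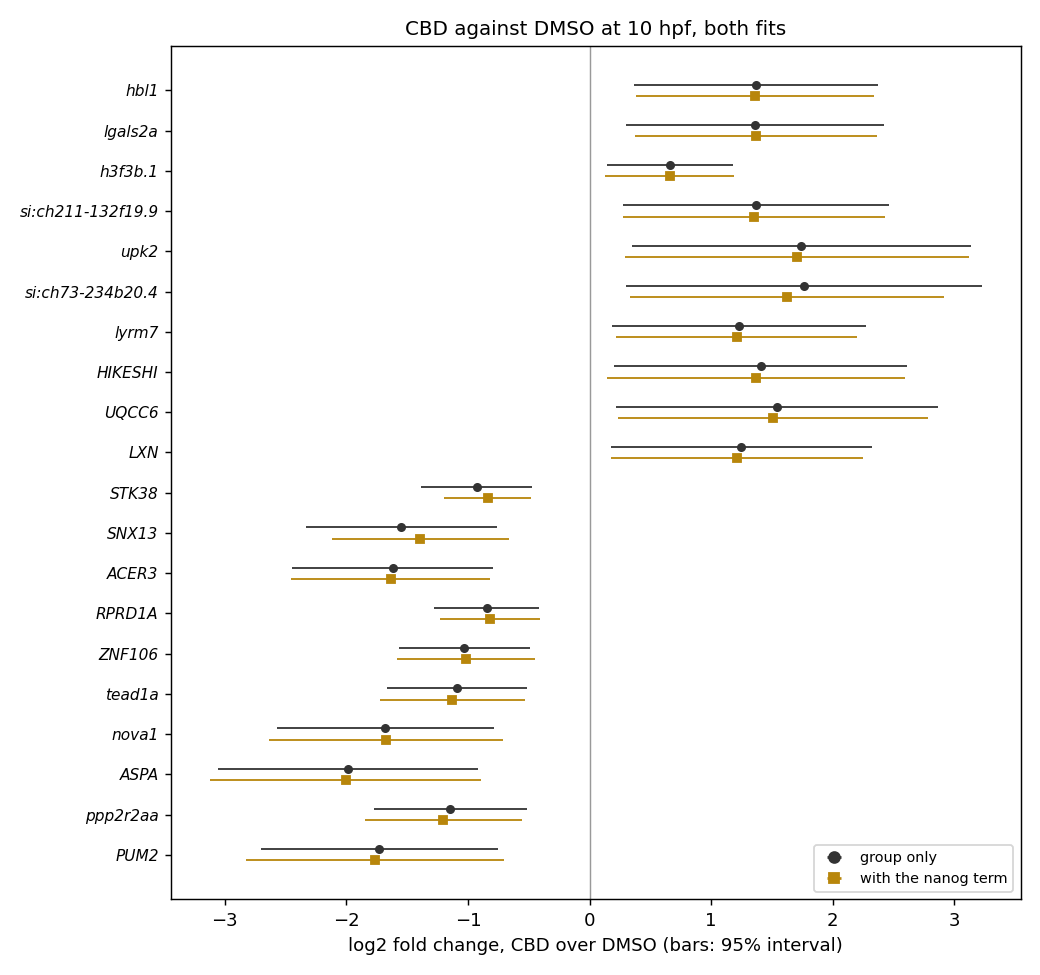
Log2 fold changes of CBD over DMSO at 10 hpf for the same 20 genes, with 95% intervals, from the fit by treatment alone (circles) and with the nanog term (squares). The estimates run from 0.66 to 1.76 against 0.66 to 1.70 in the higher genes and from -1.98 to -0.85 against -2.01 to -0.82 in the lower ones. The genes were chosen for no overlap, which a gene that followed nanog could hardly show. The closeness of the 2 fits is therefore no separate evidence.

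The count of calls turned on CBD library 1, the one with most muscle and hatching gland transcripts. Without it, 16 of 17780 genes fell at an adjusted p of 0.0188 to 0.0486 in edgeR's quasi-likelihood test (0.09%) and 0 rose, with unadjusted p under 0.05 in 2799 genes (15.7%), 1555 higher and 1244 lower. With the nanog term as well, 93 genes fell (0.523%), the same 16 among them, and 0 rose. With all 4 CBD libraries the 16 had adjusted p-values of 0.786 to 0.788 in edgeR's test. limma voom called all 16 with the 4 libraries in, but it gave CBD library 1 a weight of only 0.298, against 2.15 for CBD library 2. Without CBD library 3 instead, 0 of 18086 genes passed, and 702 had an unadjusted p under 0.05 (3.88%), 70 higher and 632 lower. The 16 genes below were singled out after their values were seen.

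NR6A1 (ENSDARG00000101508; another identifier has the same symbol), the orphan nuclear receptor known as germ cell nuclear factor, had the widest gap in absolute level. It was at 62.4, 8.14, 2.15 and 3.78 CPM in the CBD libraries, at 125.7, 132.8, 89.7 and 80.7 CPM in the THC libraries and at 102.6, 88.6 and 122.5 CPM in the DMSO libraries. CBD libraries 2 to 4 held a small fraction of the level of any DMSO or THC library, while CBD library 1 lay between. The log2 fold change was -4.43 without CBD library 1 and -2.44 ± 0.89 (SE) with it. HSPA12A, a distant relative of the Hsp70 chaperones, was at 12, 1.76, 1.29 and 1.53 CPM in the CBD libraries, at 19.7, 22.6, 20.3 and 9.76 CPM in the THC libraries and at 14.6, 15.8 and 22.2 CPM in the DMSO libraries. Its CBD libraries 2 to 4 lay close together, with a log2 fold change of -3.48 without CBD library 1 and -2.06 ± 0.70 (SE) with it.

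Others of the 16 act in endosomal traffic, in the cytoskeleton and in turnover of RNA and protein. TBC1D9, of a family that acts on Rab GTPases, was at 7.96, 1.70, 0.97 and 2.06 CPM in the CBD libraries and at 10.2, 21.0 and 19.1 CPM in the DMSO libraries. RC3H1 (ENSDARG00000062550; the symbol is shared), the messenger RNA decay factor roquin, was at 21.1, 4.15, 0.86 and 3.97 CPM in the CBD libraries and at 26.5, 25.3 and 28.3 CPM in the DMSO libraries. WWTR1, the Hippo coactivator Taz that binds Tead factors, was at 23.6, 9.10, 5.07 and 7.65 CPM in the CBD libraries and at 26.5, 25.0 and 24.2 CPM in the DMSO libraries. In RC3H1 and WWTR1, CBD library 1 lay close under the DMSO libraries. For EEA1, the tether of early endosomes, it lay above them: 25.8, 7.03, 4.20 and 5.26 CPM in the CBD libraries and 22.6, 15.4 and 18.3 CPM in the DMSO libraries.

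The uncharacterised si:dkey-250d21.1 went lowest, to 0.64, 0 and 0.29 CPM in CBD libraries 2 to 4, against 12.7 CPM in CBD library 1 and 23.9, 11.4 and 17.0 CPM in the DMSO libraries. ITCH, a ubiquitin ligase, was at 6.64, 1.38, 1.40 and 2.82 CPM in the CBD libraries and at 9.48, 11.9 and 10.4 CPM in the DMSO libraries. KIF1C, a kinesin motor, was at 28.2, 9.26, 9.70 and 10.9 CPM in the CBD libraries and at 29.9, 30.7 and 23.8 CPM in the DMSO libraries. The other members were PUM2, SIPA1L3, ANO5 (ENSDARG00000015731), si:ch211-107m4.1, mazb, ABI1 (ENSDARG00000062991) and GIPC1. In 5 of the 16, CBD library 1 lay above the lowest DMSO library, and in 14 CBD library 3 was the lowest. In all 16 each THC library lay above CBD libraries 2 to 4. The 16 were chosen for low values in those CBD libraries, so this order is no separate evidence, and its share over all genes was not counted.

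**Figure D4:**
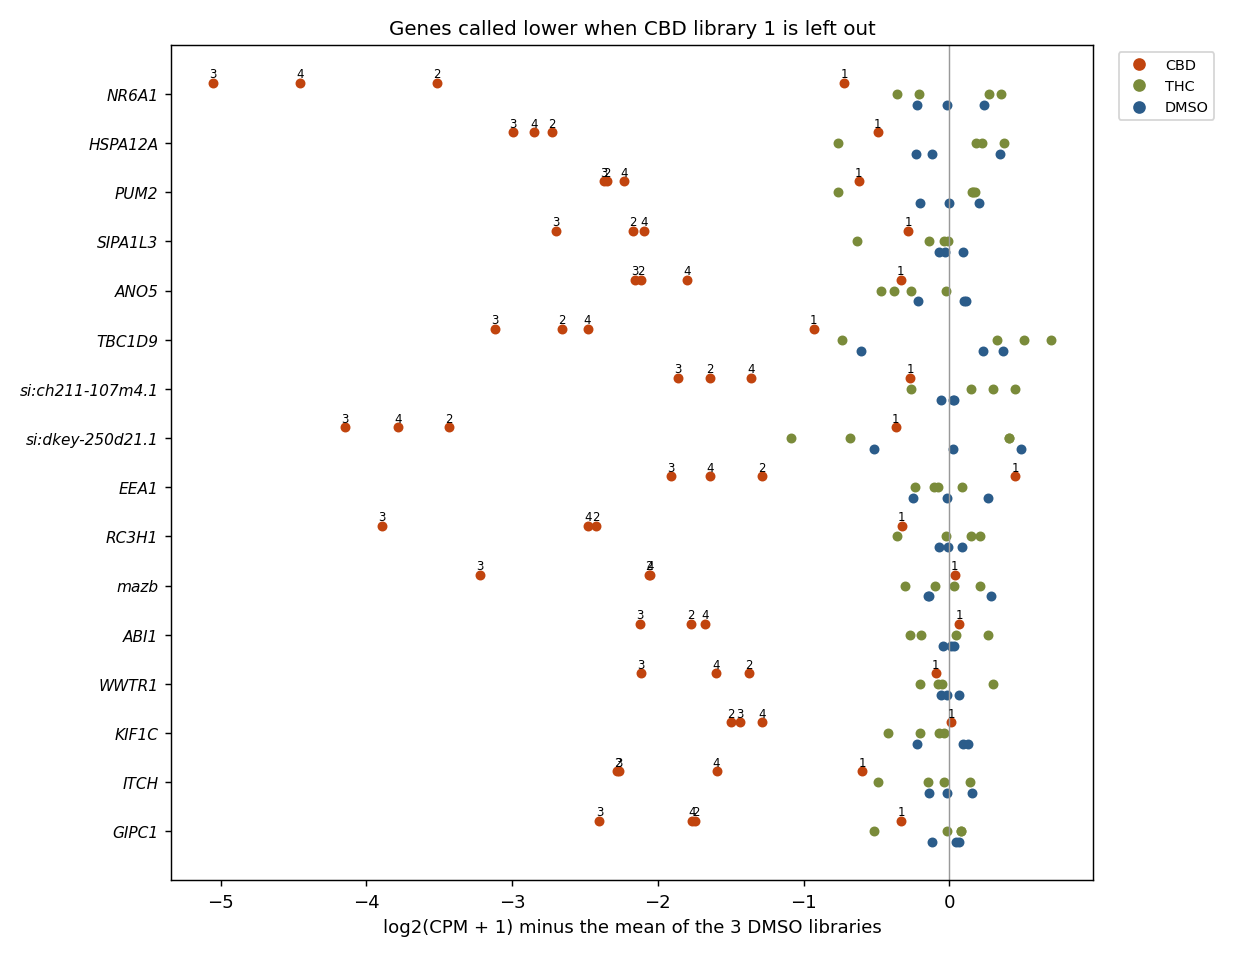
The 16 genes called lower when CBD library 1 is left out: log2(CPM + 1) minus the mean of the 3 DMSO libraries, for each CBD, THC and DMSO library of 10 hpf, with the number of each CBD library. CBD libraries 2 to 4 lie to the left of every THC and DMSO library, and CBD library 1 lies near or among those, above the lowest DMSO library in 5 genes.

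Among gene groups, those of protein synthesis, respiration and protein breakdown were among those furthest above DMSO, and much less so without CBD library 3. Of the 82 genes for proteins of the cytosolic ribosome, 81 had a higher mean in CBD, against 51.9% of all genes, with a median log2 fold change of 1.3 against 0.02 over all genes. 75 of the 82 had an unadjusted p under 0.05 on the higher side (1.91% of all genes did), none passed the adjusted test and 0 were without overlap between the groups. The group took 7.97%, 7.45%, 18.2% and 5.39% of all counts in CBD libraries 1 to 4 and 6.83%, 4.64% and 5.27% in the DMSO libraries. Without CBD library 3 the median was 0.34, with 81 of 82 still above 0 and 0 at an unadjusted p under 0.05. RPL38, of the large subunit, was at 383, 309, 2563 and 243 CPM in the CBD libraries and at 250, 212 and 240 CPM in the DMSO libraries. RPS25, of the small subunit, was at 805, 807, 4176 and 583 CPM in the CBD libraries and at 616, 475 and 549 CPM in the DMSO libraries. For both genes CBD library 4 lay within the DMSO range, CBD libraries 1 and 2 lay above it, and CBD library 3 stood several-fold above every other library.

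Respiration showed the same order with less overlap. All 89 measured nuclear genes for subunits of the respiratory chain and ATP synthase had a higher mean in CBD, with a median log2 fold change of 0.96, and 12 of them lay above DMSO without overlap (1.86% of all genes did). Without CBD library 3, 88 of 89 were higher, with a median of 0.24. cox6c, a subunit of cytochrome oxidase, was at 69.7, 80.5, 356 and 67.5 CPM in the CBD libraries and at 60.1, 50.6 and 57.0 CPM in the DMSO libraries. atp5f1e, the epsilon subunit of ATP synthase, was at 53.4, 66.5, 193 and 37.6 CPM in the CBD libraries and at 50.2, 26.9 and 31.1 CPM in the DMSO libraries. CBD library 4 lay inside the DMSO range for atp5f1e and above it for cox6c.

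Transcripts encoded in the mitochondrial genome took a larger share of counts in the 4 CBD libraries than in the 3 deep DMSO libraries. That share was 1.97%, 1.55%, 2.78% and 1.53% in CBD libraries 1 to 4, 1.54%, 1.64%, 1.88% and 1.78% in THC libraries 1 to 4, and 1.51%, 1.39% and 1.35% in DMSO libraries 1 to 3. CBD libraries 2 and 4 lay just above DMSO library 1, as did all THC libraries. DMSO library 4, left out for its depth, had 1.75%, above CBD libraries 2 and 4. The means were 1.96 ± 0.58% in CBD (SD, n = 4) and 1.41 ± 0.09% in DMSO (SD, n = 3), with a two-sided exact permutation p of 0.0571, the smallest that 4 against 3 allows, and 0.229 adjusted over 4 library measures. Of the 13 protein-coding genes 11 had a higher mean in CBD, 13 of 13 did without CBD library 3, 6 lay higher without overlap (1.86% of all genes did), and 1 of the 13 had no count in CBD library 3. MT-CO3, a subunit of cytochrome oxidase, was at 2391, 1902, 4327 and 1747 CPM in the CBD libraries and at 1679, 1526 and 1521 CPM in the DMSO libraries. Its log2 fold change was 0.72 ± 0.30 (SE), and 0.36 without CBD library 3. At 96 hpf, in other libraries with their own controls, 13 of 13 of these genes had a higher mean in CBD, with a median log2 fold change of 0.42, and none passed the test. Their share at 96 hpf was 4.37%, 3.57%, 3.99% and 3.70% in the CBD libraries and 3.84%, 2.94%, 3.50% and 1.44% in the DMSO libraries, with overlap. The DMSO mean of that age was thus lowered by DMSO library 4, which lay far below the others. The nuclear groups lay the other way there. A higher mean in CBD was found for 1 of 82 ribosomal genes, with a median of -0.20, for 15 of 89 nuclear respiratory genes, with a median of -0.09, and for 4 of 46 proteasome genes, with a median of -0.14.

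For subunits of the proteasome, which degrades tagged proteins, 42 of 46 genes had a higher mean in CBD with a median log2 fold change of 0.66, and 0.19 without CBD library 3. PSMD9, an assembly chaperone of its cap, was at 24.5, 24.2, 142 and 33.4 CPM in the CBD libraries and at 20.5, 26.8 and 22.8 CPM in the DMSO libraries. 5 of the 46 lay higher without overlap (1.86% of all genes did). Of the oxidative stress genes 24 of 32 had a higher mean, with a median of 0.27, and 0.10 without CBD library 3. gpx1a, a glutathione peroxidase, was at 28.7, 31.6, 75.7 and 23.8 CPM in the CBD libraries and at 24.3, 21.4 and 21.5 CPM in the DMSO libraries. How far the smaller number of genes detected in CBD library 3 bears on these groups was not tested.

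**Figure D5:**
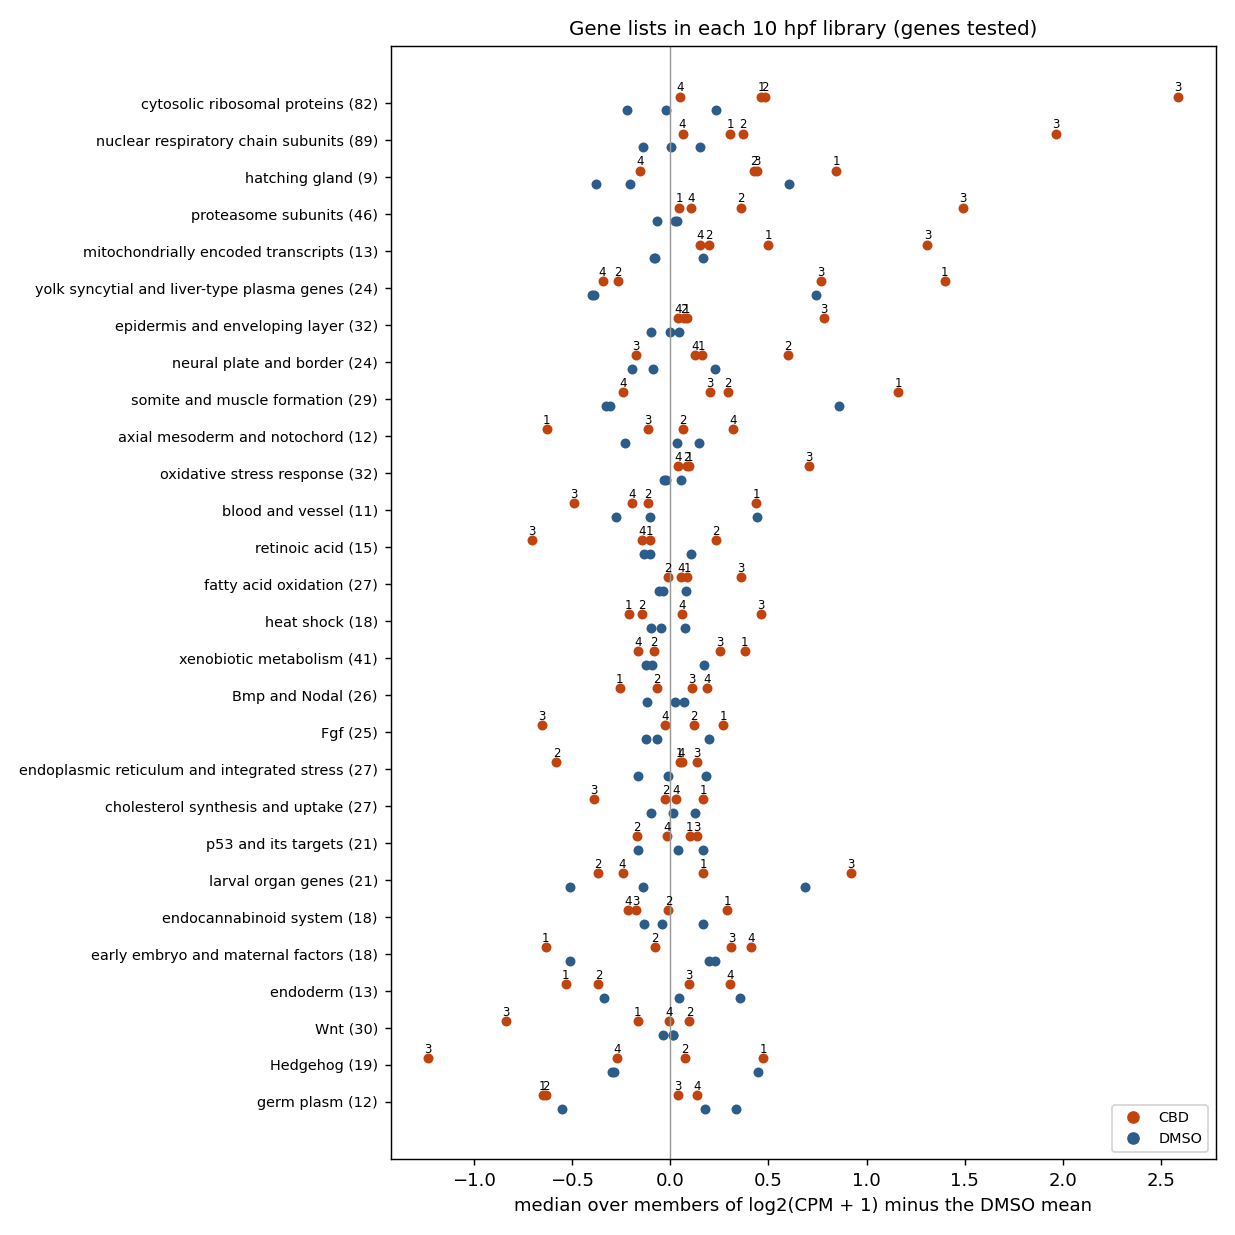
Level of 28 gene groups in each CBD and DMSO library of 10 hpf: the median over the members that passed the low-count filter (their number in brackets) of log2(CPM + 1) minus the DMSO mean, with CBD points above DMSO points and CBD libraries numbered. CBD library 3 lies far to the right for ribosomal, respiratory and proteasome genes, and CBD library 1 and 1 DMSO library lie to the right for somite, yolk and hatching gland genes.

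Genes of the somites, hatching gland and yolk layer were highest, by the median over members, in library 1 of each group. Of 29 somite and muscle genes 24 had a higher mean in CBD, with a median log2 fold change of 0.33, and 12 fell with the nanog level (12% of all genes did). The median was 0.08 without CBD library 1 and 0.92 without DMSO library 1. The summed level of all 32 genes of this list, tested or not, was 1935, 1533, 1138 and 1194 CPM in CBD libraries 1 to 4. It was 1733, 1115 and 1238 CPM in the DMSO libraries, so that library 1 of each group was the highest. mespaa, which sets somite boundaries, was at 6.95, 9.05, 20.5 and 8.65 CPM in the CBD libraries and at 5.44, 4.97 and 6.88 CPM in the DMSO libraries, without overlap by a narrow margin. It was the 1 gene higher without overlap among the 29 (1.86% of all genes were), and 1 lay lower without overlap (4.39% of all genes did). Of 9 hatching gland genes 9 had a higher mean, with a median of 0.67, which was 0.24 without CBD library 1 and 2.27 without DMSO library 1. Genes of the yolk syncytial layer and of liver-type plasma proteins had a higher mean in 21 of 24, with a median of 0.43, which was -0.01 without CBD library 1 and 1.21 without DMSO library 1.

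Germ plasm genes had a negative median with each library left out, of a size that varied. Early and maternal factors had no steady direction. Of 12 germ plasm genes 10 had a lower mean in CBD, with a median log2 fold change of -0.27, or -0.16 with the nanog term, and 8 rose with the nanog level (8.74% of all genes did). The median was -0.04 without CBD library 1 and -0.54 without CBD library 4. TDRD6, a Tudor protein of germ granules, was at 2.27, 3.14, 9.05 and 6.17 CPM in the CBD libraries and at 3.99, 18.6 and 18.7 CPM in the DMSO libraries. The groups overlapped, and its log2 fold change was -1.43 ± 0.72 (SE), or -0.95 with the nanog term. Of 18 early and maternal factors, nanog among them, 8 were higher and 10 lower, with a median of -0.06. The median was 0.06 with the nanog term, nanog itself left out, and 0.15 without CBD library 1. In this group 10 genes rose with the nanog level (8.74% of all genes did), a count that includes nanog itself, which must do so. vox, a ventral repressor, was at 139, 274, 1026 and 309 CPM in the CBD libraries and at 163, 273 and 281 CPM in the DMSO libraries.

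By the median over neural plate genes, CBD library 3 was the lowest CBD library and only CBD library 2 lay above every DMSO library. The median log2 ratio to the DMSO mean was 0.16, 0.60, -0.17 and 0.13 in CBD libraries 1 to 4. It was 0.23, -0.19 and -0.09 in DMSO libraries 1 to 3. Of 24 such genes 19 had a higher mean in CBD, and 23 of 24 did without CBD library 3, with a median log2 fold change of 0.37 against 0.36 with it. The median was 0.14 with the nanog term, and 10 of the 24 fell with the nanog level (12% of all genes did). hoxb1b, a hindbrain Hox gene, was at 96.1, 220, 150 and 108 CPM in the CBD libraries and at 101, 82.8 and 92.1 CPM in the DMSO libraries. OTX2, of the forebrain and midbrain, was at 62.0, 156, 129 and 106 CPM in the CBD libraries and at 80.1, 67.8 and 83.3 CPM in the DMSO libraries. For both, CBD libraries 2 to 4 lay above every DMSO library and CBD library 1 inside or below their range. None of the 24 had an unadjusted p under 0.05. Genes of the epidermis and enveloping layer had a higher mean in 25 of 32, with a median of 0.40, and 0.11 without CBD library 3. Before TMM scaling they took 2.36%, 2.366%, 2.313% and 2.129% of counts in CBD libraries 1 to 4. In DMSO libraries 1 to 3 they took 2.245%, 1.994% and 1.983%, so CBD library 3 was not the highest by that share. Other tissue groups changed size or sign with single libraries. The median over 12 axial mesoderm and notochord genes was 0.30, and 0.05 without CBD library 1. Over 11 blood and vessel genes it was 0.26, -0.07 with the nanog term, -0.22 without CBD library 1 and 0.66 without DMSO library 1. Over 13 endoderm genes it was -0.07, and 0.05 without DMSO library 2. Over the 21 larval organ genes it was -0.03, -0.76 without CBD library 3 and 1.03 without DMSO library 1.

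No gene of the signalling pathways of gastrulation passed the test, and their medians moved with single libraries. The median log2 fold change was 0.08 over 26 Bmp and Nodal genes, 0.08 over 25 Fgf genes, -0.07 over 30 Wnt genes, -0.16 over 19 Hedgehog genes and 0.24 over 15 retinoic acid genes. With the nanog term it was -0.16 for Fgf and 0.02 for retinoic acid genes. For Hedgehog genes it was 0.05 without CBD library 3 and -0.55 without CBD library 1. Single genes stood apart without passing the test. TLL1, a tolloid-like protease, the family that frees Bmp from Chordin, was at 29.4, 10.8, 2.59 and 8.08 CPM in the CBD libraries and at 42.2, 29.7 and 33.4 CPM in the DMSO libraries. APC, the scaffold that marks beta-catenin for destruction, was at 107, 77.9, 55.4 and 96.7 CPM in the CBD libraries and at 128, 160 and 159 CPM in the DMSO libraries. RXRB, a partner of the retinoic acid receptors, was at 65.9, 53.7, 27.8 and 49.3 CPM in the CBD libraries and at 82.2, 102 and 102 CPM in the DMSO libraries. In these 3 the CBD libraries all lay below DMSO, with log2 fold changes of -1.46 ± 0.58, -0.82 ± 0.26 and -0.95 ± 0.25 (SE). Their unadjusted p-values in edgeR's quasi-likelihood test were 0.0284, 0.00867 and 0.00292. Each was the 1 gene lower without overlap among the 26, 30 and 15 of its group, and 4.39% of all genes were. Among the Bmp and Nodal genes 2 lay higher without overlap (1.86% of all genes did). dkk1b, a secreted Wnt inhibitor, was at 17.4, 30.0, 39.8 and 17.3 CPM in the CBD libraries and at 17.5, 12.5 and 14.1 CPM in the DMSO libraries, with a pair of CBD libraries inside the DMSO range.

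Both cannabinoid receptor genes were near 0 at this age, and no gene of the endocannabinoid group passed the test. CNR1, the cannabinoid receptor of the nervous system, was at 0.22, 0.16, 0 and 0 CPM in the CBD libraries and at 0.09, 0 and 0 CPM in the DMSO libraries, too few counts to test. CNR2, the receptor of immune cells, had no count in any of the 7. Without the TMM scaling, 3 counts would stand for 0.14 to 0.20 CPM in these libraries. With it, 3 counts stood for 0.32 CPM in CBD library 3. faah, which breaks down the endocannabinoid anandamide, was at 9.31, 5.32, 0.22 and 1.72 CPM in the CBD libraries and at 6.71, 2.27 and 1.90 CPM in the DMSO libraries, and it was lower where nanog was higher (adjusted p = 0.0099 for the nanog term). Its log2 fold change was 0.20 ± 0.88 (SE), and -0.46 with the nanog term. Over the 18 endocannabinoid genes tested, 9 were higher and 9 lower, with a median of -0.05, and 0.37 without DMSO library 1. HTR1A, a serotonin receptor at which CBD acts in mammals, was at 0.87, 1.01, 1.40 and 1.72 CPM in the CBD libraries, at 0.90, 2.15, 2.87 and 1.07 CPM in the THC libraries and at 0.61, 0.58 and 0.60 CPM in the DMSO libraries. The CBD and THC libraries all lay above DMSO, at levels near 1 CPM, and the unadjusted p for CBD was 0.0555 in edgeR's quasi-likelihood test. HTR1A was the 1 gene higher in CBD without overlap among the 18 (1.86% of all genes were). The list also held its paralog htr1aa, whose levels are not given here.

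No gene of foreign-compound metabolism or stress passed the test. CYP1A1, the main target of the aryl hydrocarbon receptor, was at 1.57, 0.43, 0 and 0.19 CPM in the CBD libraries and at 1.5, 0.21 and 0.05 CPM in the DMSO libraries, and was too low to test. ahr2, that receptor, was at 7.08, 4.58, 2.69 and 4.54 CPM in the CBD libraries and at 7.18, 10.4 and 7.37 CPM in the DMSO libraries, without overlap by a narrow margin. Its log2 fold change was -0.81 ± 0.34 (SE), with an unadjusted p of 0.0366 in edgeR's quasi-likelihood test. Without CBD library 3, 0 genes of its group were lower at an unadjusted p under 0.05 in that test. ahr2 was the 1 gene lower without overlap among the 41 of its group, and 4.39% of all genes were. Of 41 genes of xenobiotic metabolism 24 had a higher mean in CBD at 10 hpf, with a median of 0.09, and 35 of 41 did at 96 hpf, with a median of 0.18. The median was 0.01 over 21 p53 targets, 0.06 over 27 genes of endoplasmic reticulum stress, 0.10 over 18 heat shock genes, 0.04 over 27 genes of cholesterol synthesis and uptake and 0.12 over 27 genes of fatty acid oxidation, of which 21 had a higher mean in CBD.

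The larvae of 96 hpf, in 4 libraries a group with their own controls, did not repeat the 10 hpf order. There 0 of 21409 genes passed edgeR's quasi-likelihood test, and 410 had an unadjusted p under 0.05 (1.92%). Of the 798 genes lower without overlap at 10 hpf, 709 were measured at 96 hpf with a median log2 fold change of 0.03, and 58.4% lay above 0. Of the 338 higher ones, 323 were measured there with a median of -0.04, and 39.6% lay above 0, against 49.8% of all 16674 genes measured at both ages. Of the 16 genes that fell without CBD library 1, 12 were measured at 96 hpf, with log2 fold changes of -0.25 to 0.39. The difference between the CBD effects at 10 and 96 hpf, tested over 23 libraries, passed in 0 of 23028 genes, with 1585 at an unadjusted p under 0.05 (6.88%). Without CBD library 1 of 10 hpf it passed in 5 genes, named here after their values were seen: HSPA12A, RC3H1, cdk5rap2 and UBE3B on the lower side and dnm3a on the higher side.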

How the data were processed

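RNA was sequenced as paired 100-base reads on an Illumina instrument, per the labels' protocols. The authors deposited raw read counts per gene for each library. The submitters' processing notes name STAR, HTSeq, edgeR and GRCz11, with no versions. Symbols came from a gene name table for 27000 of 35117 identifiers, spelled as there, and no row was without a gene.

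Counts of the 11 libraries of 10 hpf above 1000000 counts (15307666 to 22674319) were filtered (filterByExpr, minimum count 10), TMM-scaled and tested with edgeR 4.0.16's quasi-likelihood test in R 4.3.3, with Benjamini-Hochberg adjustment over all genes tested and a threshold of 0.05. THC libraries entered for the spread and, in the second fit, for the nanog slope, and their levels are given beside the others. A second fit added centred log2 nanog CPM (prior count 2), without nanog itself. Alternatives were DESeq2 1.42.0, limma 3.58.1 voom with quality weights, other scaling and filters, a replicate block, other measures of position and leaving out each library. The edgeR fit was also run on simulated counts with known changes. The share recovered is not given here, so how large a change the 0 calls could have missed is not stated. No 2 libraries of a group agreed within sampling noise.

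The genes named are, on each side, the 10 of smallest p with a symbol, at least 1 CPM in a group mean and no overlap, since none passed the threshold, together with up to 3 of smallest p from each of 28 lists, and fixed stage and target genes. Members, lists and rule were chosen with earlier results of these data known. "Above" and "below" compare CPM, which is not per gene length, within a gene only. Limits on a count of 0 cover counting error only.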

Additional observations from a re-analysis of the deposited data

Results flagged for a closer look

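In 15 of 62 groups of 4 values checked, 1 CBD library stood apart from its 3 fellows by more than Dixon's 95% limit for the gap to the nearest value over the whole range. For normally distributed values chance gives about 1 in 20. Single genes were checked as CPM without a log, which are skewed, so that rate need not hold for them. Part of the genes were also chosen by their CBD values. The values are not independent of one another, since the same library recurs. CBD library 3 was the highest for the level of ribosomal protein genes (0.831), nuclear respiratory genes (0.834) and oxidative stress genes (0.883). It was also the highest for hbl1 (0.865), si:ch211-132f19.9 (0.933), si:ch73-234b20.4 (0.922), lyrm7 (0.853), HIKESHI (0.904), UQCC6 (0.977) and LXN (0.954). CBD library 1 was the highest for PUM2 (0.957), smyhc1 (0.995), he1.1 (0.942) and FLI1 (0.98). CBD library 2 was the lowest for STK38 (0.904).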

How the results depend on the processing

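The count of 0 calls between CBD and DMSO at 10 hpf held under other scaling, filters, a 1.5-fold minimum, the CBD and DMSO libraries alone and with DMSO library 4 added, in both fits, and with 4 other measures of position, 1 of them chosen after seeing the data. It did not hold under limma voom (393 genes, and 1551 with the nanog term) or, with the nanog term, DESeq2 (1). Leaving out 1 library at a time gave 0 to 16 genes, and 0 to 93 with the nanog term, in each case above 0 only without CBD library 1. The difference from 96 hpf gave 0 to 5, above 0 only without CBD library 1. The count at 96 hpf was 0 throughout. The cause was not tested. The 3765 genes changing with nanog were 1022 with CBD and DMSO libraries alone, where fewer samples entered, and 1756 (without DMSO library 1) to 6020 (without CBD library 3) with 1 library left out.

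The labels do not say whether replicate numbers pair the libraries, and correlations between so few libraries could not decide it. Same-numbered CBD and DMSO libraries correlated at 0.753, -0.196 and 0.342 in their deviations from group means. CBD libraries 1 and 3 correlated best with the DMSO library of the same number. For CBD library 3 the margin was narrow, 0.342 against 0.306 with DMSO library 2. CBD library 2 correlated best with DMSO library 1. With the replicate block 0 genes were called in both fits, at 96 hpf and for the difference, and 213 changed with nanog.

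With 1 library left out, the direction of 8 of the 84 genes checked reversed. The log2 fold change ran from -1.28 to 0.10 for nanog, -1.03 to 2.94 for MYOD1, -5.43 to 6.71 for smyhc1, -1.99 to 5.32 for he1.1, -0.54 to 0.053 for pou5f3, -0.095 to 0.25 for SOX2, -0.52 to 0.98 for faah and -3.40 to 7.93 for FLI1. The difference in log2 nanog level ran from -1.74 to 0.088. SOX2 was at -0.049 with the replicate block and -0.063 with the nanog term, and faah at -0.087 and -0.46. The difference in mitochondrial percent ran from 0.272 (without CBD library 3) to 0.688, and that in genes detected from -1588 to -181 (without CBD library 3).

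Genes with few counts, CNR1, CNR2 and CYP1A1 among them, could not be compared at this depth.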
